A study of Mus musculus with 18 samples.

Results

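The 10 genes described here are 4 Notch ligands (Jag1, Jag2, Dll1 and Dll4), 3 Notch receptors (Notch1, Notch2 and Notch3) and 3 transcriptional targets of the pathway (Hes1, Hey1 and Heyl). They were taken by symbol from a table of read counts and a table of FPKM (fragments normalised to gene length and library size), and all 10 were found among the 24111 genes of the count table. RNA came from mpkCCD cells, a mouse line of cortical collecting duct epithelium, of the clone named mpkCCD11. All cells were grown on permeable supports in medium with serum, insulin, dexamethasone, triiodothyronine and epidermal growth factor, and then kept without serum for 24 h. In the next 24 h, without serum, the 9 dDAVP samples received 0.1 nM dDAVP, an agonist of the vasopressin V2 receptor, and the 9 control samples received none. The samples of both groups are numbered 1 to 9, and numbers 1 to 3, 4 to 6 and 7 to 9 are described below as 3 sets. The labels do not say what the sets are, and they do not say that samples came from separate cultures, so every p-value measures only the spread between these samples, which may be technical.

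Notch signalling passes between touching cells. A Delta or Jagged ligand on one cell binds a Notch receptor on its neighbour, the receptor is cut first by a metalloprotease and then by gamma-secretase, and the freed intracellular part joins the DNA-binding protein RBPJ in the nucleus to switch on genes such as those of the Hes and Hey repressor families. In the kidney's collecting duct the pathway is known for dividing cells between the principal fate, which carries the vasopressin-regulated water channel, and the acid-secreting or base-secreting intercalated fate: cells that receive the signal tend to become principal cells, and Jag1 is known from the intercalated side.

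Depth ran from 22212779 to 105932411 counts per library, and 3 counts, used here as a floor, correspond to 0.0283 to 0.135 on the counts-per-million scale. The sets stood apart from each other before any gene is considered. Ribosomal protein genes took 20.7 to 28.8% of the counts in set 1 to 3, 0.861 to 10.2% in set 4 to 6 and 10.2 to 16.1% in set 7 to 9, and the lowest share belonged to dDAVP library 6. The treatment itself was visible in Aqp2, the vasopressin-regulated water channel of principal cells, which rose from 54.8 ± 74.8 to 1275 ± 1069 normalised counts-per-million units (SD, n = 9 each; log2 fold change 4.63, SE 0.72, edgeR quasi-likelihood test with a term for the set, Benjamini-Hochberg adjusted p = 0.00504). Levels below are normalised counts-per-million values (CPM), that is, counts divided by the library total after edgeR's TMM scaling.

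Jag1, Notch2 and Jag2 had the largest fitted log2 differences between sets and their promoters are therefore shown first. Each sequence runs 5′ to 3′ on the gene's own strand from 250 bases before to 50 bases after the annotated start, from RefSeq on GRCm38.p6, and capitals mark an N box, the letters CACNAG on either strand, a motif bound by Hes repressors. The windows are chr2:137116471-137116770 on the minus strand for Jag1, chr3:98013288-98013587 on the plus strand for Notch2 and chr12:112929446-112929745 on the minus strand for Jag2.
Jag1: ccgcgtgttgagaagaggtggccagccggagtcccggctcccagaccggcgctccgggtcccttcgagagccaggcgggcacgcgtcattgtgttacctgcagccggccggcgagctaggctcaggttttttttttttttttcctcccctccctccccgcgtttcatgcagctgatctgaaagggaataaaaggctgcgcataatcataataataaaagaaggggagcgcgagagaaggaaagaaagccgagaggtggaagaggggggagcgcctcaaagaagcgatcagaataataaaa
Notch2: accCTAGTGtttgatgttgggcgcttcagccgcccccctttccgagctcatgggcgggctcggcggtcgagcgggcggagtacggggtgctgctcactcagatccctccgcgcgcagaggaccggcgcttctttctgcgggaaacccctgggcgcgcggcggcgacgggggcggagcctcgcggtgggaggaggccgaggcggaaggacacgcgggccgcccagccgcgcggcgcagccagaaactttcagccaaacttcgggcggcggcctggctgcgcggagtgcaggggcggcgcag
Jag2: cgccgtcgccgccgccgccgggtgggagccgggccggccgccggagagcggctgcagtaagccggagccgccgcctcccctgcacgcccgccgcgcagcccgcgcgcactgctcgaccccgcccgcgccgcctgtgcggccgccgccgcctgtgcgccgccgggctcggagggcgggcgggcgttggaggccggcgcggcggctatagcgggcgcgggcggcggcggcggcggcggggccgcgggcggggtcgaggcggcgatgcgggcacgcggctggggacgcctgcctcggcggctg
These windows differ in base composition: G and C make up 55.7% of the Jag1 window, 73.0% of the Notch2 window and 86.0% of the Jag2 window, beside a median of 52.7% over 32851 RefSeq promoter windows. CpG pairs numbered 22, 41 and 63 in the same order, and the median of all windows was 7. A promoter entry was found for 7 of the 10 genes, all but the 3 targets. The RBPJ core TGGGAA, searched on both strands, was in 0 of these 7 promoters and in 25.6% of all windows. The E box CACGTG, which Hey proteins and other factors of their class bind, was in 0 of the 7 and in 7.15% of all windows. The N box was in 5 of the 7 (Dll1, Dll4, Notch1, Notch2 and Notch3) and in 42.5% of all windows. Jag1 thus had no match to any of the 3 motifs and Notch2 had 1 N box, which says only that the other letters are not in these windows. As the N box was the only motif found, no matches of different motifs overlapped.

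Jag1 and Notch2 were abundant in set 4 to 6 and scarce in the other libraries, with and without dDAVP. Jag1, a transmembrane ligand of the Jagged class (chromosome 2, 137081456 to 137116644, minus strand, mm10), stood at 1.22, 2.11 and 1.89 CPM in control libraries 1, 2 and 3 and at 0.777, 0.845 and 1.13 CPM in dDAVP libraries 1, 2 and 3. In set 4 to 6 it stood at 1223, 201 and 1200.5 CPM in control and at 1297, 386 and 1648 CPM with dDAVP. In set 7 to 9 it stood at 0.884, 0.124 and 0.239 CPM in control and at 0, 0.0143 and 0.00997 CPM with dDAVP. Jag1 was thus at 201 CPM or more in the 6 libraries of set 4 to 6 and at 2.11 CPM or less in the 12 others, under both treatments. The counts behind these levels were 8329 to 40613 per library in set 4 to 6, 14 to 42 in set 1 to 3 and 0 to 85 in set 7 to 9.

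Notch2, a receptor (chromosome 3, 98013527 to 98150361, plus strand), was likewise highest in set 4 to 6. Its control and dDAVP libraries of set 1 to 3 held 4.88, 23.1 and 7.74 CPM, and 7.63, 18.2 and 4.62 CPM. Those of set 4 to 6 held 1761, 341 and 2712 CPM, and 2769.6, 1104 and 4657 CPM. Those of set 7 to 9 held 4.46, 2.49 and 1.06 CPM, and 1.35, 7.04 and 3.10 CPM. All 6 libraries of set 4 to 6 lay above all 12 others for both Jag1 and Notch2, and for no other member tested, as they did for 694 of 10121 genes (6.86%). Over these 10121 genes, those that passed edgeR's filter on low counts, the fitted difference of set 4 to 6 from set 1 to 3 was 9.87 on the log2 scale for Jag1 (SE 1.05), the 26th highest, and 7.59 for Notch2 (SE 0.74), the 135th highest, where the median gene differed by 0.51.

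Jag2, the other Jagged ligand (chromosome 12, 112907819 to 112929776, minus strand), was highest in a different set. It had 0 to 0.183 CPM in set 1 to 3, from 0 to 3 counts. In set 4 to 6 the control libraries held 1.26, 1.14 and 2.10 CPM and the dDAVP libraries 0, 0.108 and 0 CPM. In set 7 to 9 the control libraries held 0.427, 12.2 and 5.91 CPM and the dDAVP libraries 33.8, 0.528 and 4.58 CPM. The fitted difference of set 7 to 9 from set 1 to 3 was 6.88 (SE 1.33, log2), the 32nd highest of 10121 genes. Between set 7 to 9 and set 4 to 6 Jag1 and Jag2 therefore lay at opposite ends: Jag1 was lower by a fitted log2 difference of -13.07 (SE 1.19), the 4th lowest of all genes, and Notch2 by -9.40 (SE 0.79), the 48th lowest, whereas Jag2 was higher by 4.17 (SE 1.24), the 118th highest.

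Of the 7 members that passed the filter, 5 differed between sets in the edgeR test of the set term, namely Jag1 (adjusted p = 3.01e-10), Notch2 (9.81e-11), Notch3 (3.20e-05), Jag2 (9.99e-05) and Dll1 (0.00280). Hes1 (edgeR adjusted p = 0.190) and Notch1 (edgeR adjusted p = 0.0793) did not pass. The share of all tested genes called in that test was 78.0%, so a difference between sets is the common state of a gene in these libraries; the rank of a member's difference says more than its call. With library totals alone in place of TMM, 80.5% of genes and all 7 members were called.

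Notch1 and Hes1 had the smallest fitted differences of sets 4 to 6 and 7 to 9 from set 1 to 3 among the 7 tested members, with TMM scaling, although Hes1 varied widely between single libraries. With library totals alone Notch2 (-0.18) and Jag1 (-1.90) differed less than Notch1 (2.07) and Hes1 (2.10) between sets 7 to 9 and 1 to 3, where the median gene differed by 1.91. Notch1, a receptor (chromosome 2, 26457903 to 26516663, minus strand), ranged from 21.7 to 112 CPM over all 18 libraries, with set differences of 0.71 (SE 0.37) and 0.91 on the log2 scale for sets 4 to 6 and 7 to 9 from set 1 to 3. Hes1, a target that encodes a repressor of transcription (chromosome 16, 30064384 to 30067796, plus strand), held 10.0, 10.4 and 10.4 CPM in control libraries 1 to 3 and 3.23 to 75.6 CPM over all 18. Its set differences were 0.60 (SE 0.57) and 1.15. Both genes were found in every library, and the ends of both ranges were single libraries: dDAVP library 7 for Notch1 and control library 9 for Hes1.

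Notch3, Dll1, Dll4, Heyl and Hey1 were lower. Notch3, a receptor (chromosome 17, 32120820 to 32166852, minus strand), stood at 1.60 to 3.04 CPM in set 1 to 3, 8.13 to 27.8 CPM in set 4 to 6 and 2.35 to 28.5 CPM in set 7 to 9. It was higher than in set 1 to 3 by 3.19 (SE 0.51) and 2.54 (SE 0.49) on the log2 scale in the later sets, while the sign of its difference between sets 7 to 9 and 4 to 6 turned with the scaling (-0.65 with TMM, 0.43 with library totals). Dll1, a Delta ligand (chromosome 17, 15367354 to 15376872, minus strand), ran from 0 to 3.85 CPM and was higher by 3.41 and 3.76 in the later sets than in set 1 to 3. On average both genes thus had their lowest levels in set 1 to 3, although Dll1 was also at 0 counts in dDAVP library 6.

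The remaining 3 genes did not pass the filter over all 18 libraries. Dll4, a Delta ligand best known from endothelium (chromosome 2, 119325784 to 119335962, plus strand), had no count in 10 of the 12 libraries numbered 1 to 6, 1 and 4 counts in control libraries 1 and 6, and up to 84 counts, 0.583 CPM at most, in set 7 to 9. Heyl (chromosome 4, 123233556 to 123249875, plus strand), a Hey family target, reached 3.38 CPM in dDAVP library 4 and 1.76 CPM in control library 7, and lay at or under 0.949 CPM in the others. Hey1 (chromosome 3, 8663359 to 8667256, minus strand), another target of that family, had 795 counts, 11.2 CPM, in control library 9 and 0 to 22 counts in each of the other libraries. Its level in control library 9 was thus carried by 1 library, the one in which Hes1 was also highest.

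**Figure D1:**
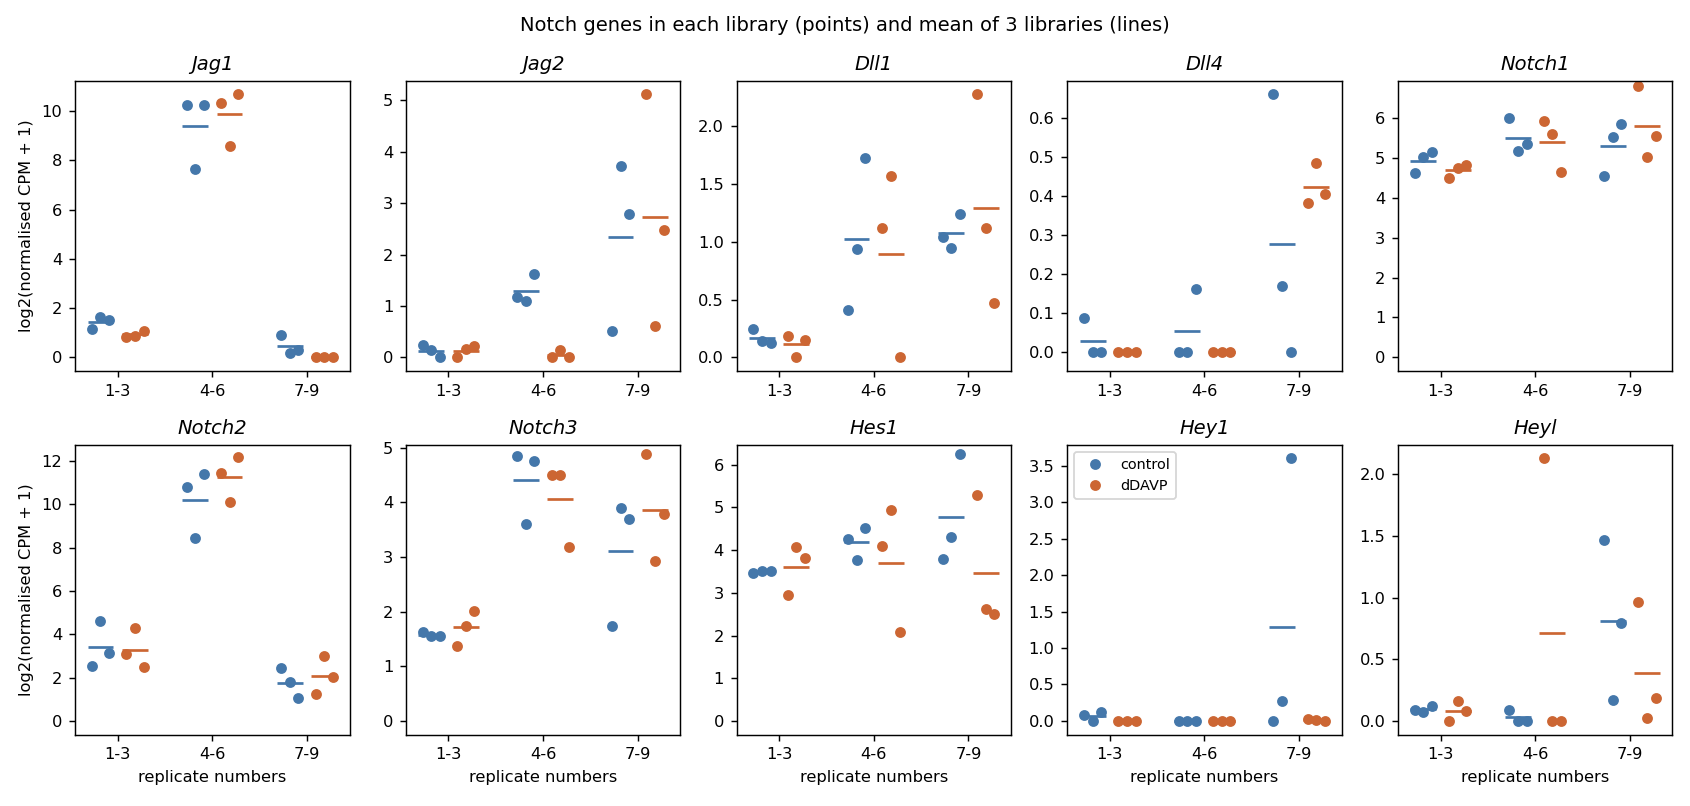
Level of each of the 10 genes in each library, as log2(normalised CPM + 1) on the vertical axis, by set of replicate numbers on the horizontal axis. Points are libraries (blue control, orange dDAVP), lines are means of 3 libraries, and each panel has its own vertical scale. Jag1 and Notch2 stand high in set 4 to 6 under both treatments, and Jag2 is highest in set 7 to 9.

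Levels of different genes can be set side by side only per unit of length, as in the FPKM table. In set 1 to 3 Hes1 had the highest FPKM of the 10 genes in 6 of 6 libraries (median 5.80, range 4.53 to 7.04), followed by Notch1 (median 2.13, 1.73 to 2.95), Notch2 (0.654, 0.307 to 1.78), Notch3 (0.197, 0.180 to 0.267) and Jag1 (0.148, 0.0997 to 0.312). The ranges of Hes1 and Notch1 did not overlap, nor did those of Notch2 and Notch3, whereas Notch1 and Notch2, and Notch3 and Jag1, overlapped with their neighbour in the order. Dll1 (median 0.0239), Jag2 (0.0202), Heyl, Dll4 and Hey1 followed, with Dll4 and Hey1 at a median of 0.

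The order was another one in set 4 to 6. Notch2 (median FPKM 119.6, range 39.8 to 239) and Jag1 (106.9, 44.8 to 202) came first and did not differ from each other beyond their spread: Notch2 was first in 4 libraries and Jag1 in 2. Hes1 (8.95, 0.682 to 19.9), Notch1 (4.03, 0.780 to 4.93) and Notch3 (1.85, 0.314 to 3.05) came next with overlapping ranges, all below the lowest library of Jag1. A receptor and a ligand were therefore the leading pair of this list in these 6 libraries.

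Hes1 again had the highest FPKM in set 7 to 9, in 5 of 6 libraries (median 18.9, range 8.80 to 60.2), followed by Notch1 (8.68, 5.45 to 15.4), Notch3 (2.48, 0.687 to 4.68) and Jag2 (2.4, 0.244 to 10.9). The range of Notch1 overlapped with that of Hes1 and not with that of Notch3, and Notch3 and Jag2 overlapped. Dll1 (0.589), Notch2 (0.565) and Dll4 (0.187) lay lower. Jag1 was next to last (0.0192, 0 to 0.374) and Hey1 last (0.00769, 0 to 5.86). Jag1 exceeded Jag2 in 6, 6 and 1 of the 6 libraries of sets 1 to 3, 4 to 6 and 7 to 9, and Notch1 exceeded Notch2 in 6, 0 and 6.

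**Figure D2:**
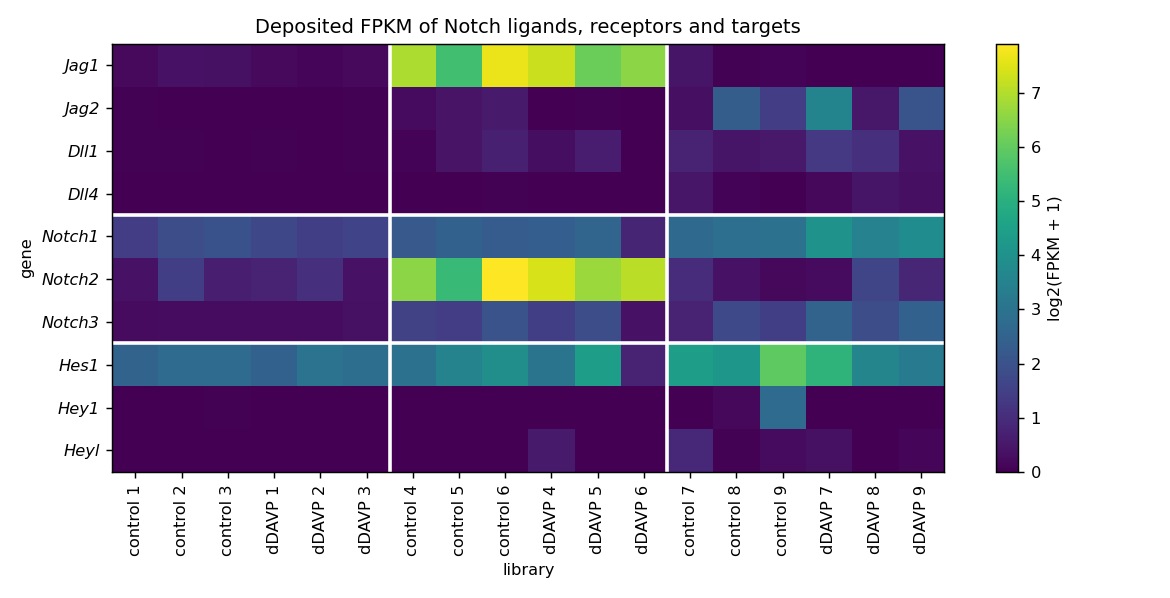
Deposited FPKM of the 10 genes (vertical axis, grouped as ligands, receptors and targets) in the 18 libraries (horizontal axis, grouped by set), coloured by log2(FPKM + 1). Hes1 and Notch1 are present throughout, Jag1 and Notch2 reach medians of 106.9 and 119.6 FPKM in set 4 to 6, and Jag2 is seen mainly in set 7 to 9.

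Gene length moved with the set difference over all genes, and its part in these results was not tested. On the scale of mean log2(CPM + 1), genes under 2 kb had a median difference of -0.31 between sets 4 to 6 and 1 to 3, and the 370 genes of 8 kb or more one of 0.58. The difference exceeded by 5% of genes went over the same classes from 2.29 to 5.42. Jag1, with 5.49 kb, differed by 8.44 and Notch2, with 10.5 kb, by 7.37, both above that 5% level of their own length class. Notch1 and Notch3, with 9.49 and 7.94 kb, differed by 0.64 and 2.59 and lay below it. Among the 3 receptors, which are all long, only Notch2 was thus in the upper 5% of its class. Jag2, with 4.05 kb, differed on this scale by 2.41 between sets 7 to 9 and 1 to 3. That lay below the 2.90 exceeded by 5% of the genes of 4 to 8 kb, although its fitted difference, from near 0 counts, ranked high.

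**Figure D3:**
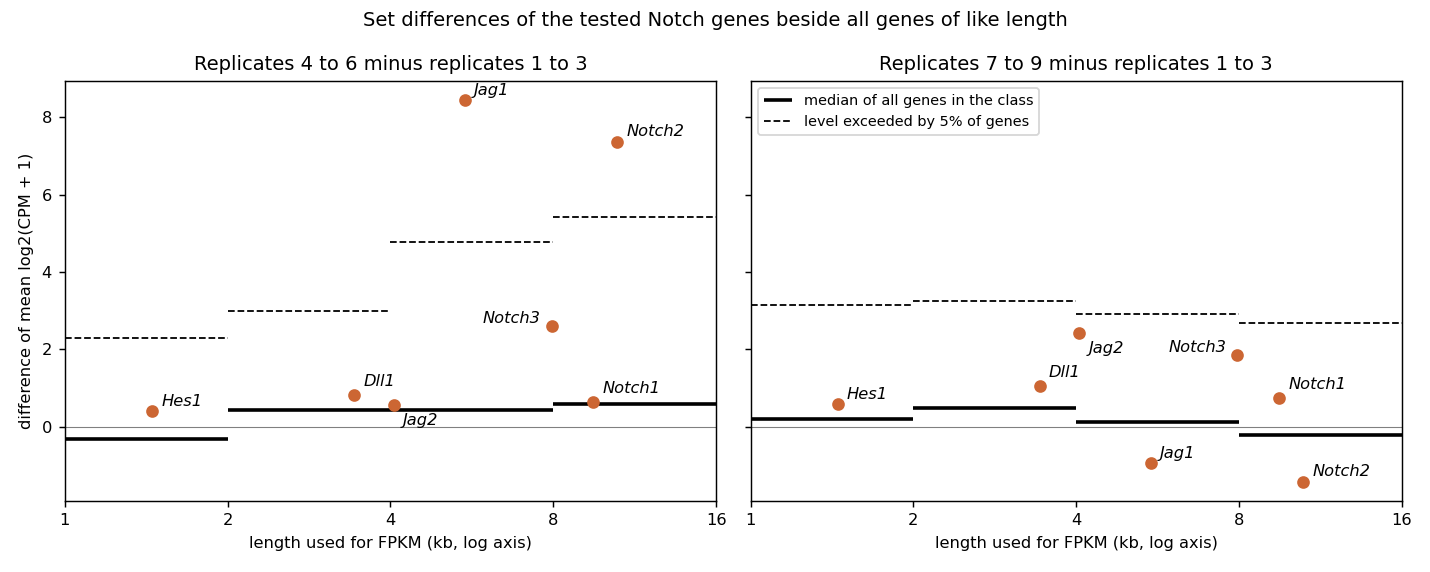
Difference between sets in mean log2(CPM + 1) (vertical axis) of the 7 tested members against the length used for FPKM (horizontal axis, kb, log scale). Thick lines are the median of all genes in each length class and dashed lines the level exceeded by 5% of genes; Jag1 (8.44) and Notch2 (7.37) lie above it between sets 4 to 6 and 1 to 3.

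With dDAVP, no member passed the test over all 18 libraries. A gene is called here at a Benjamini-Hochberg adjusted p under 0.05. In the fit without covariates this was met by 0 of 10121 genes (0%) and by 0 of the 7 members tested with edgeR, where 218 genes (2.15%) and 0 members had an unadjusted p under 0.05. DESeq2 called 12 genes, limma on log2(FPKM + 1) 2 and limma voom 1, with 0 members in each. With a term for the set edgeR called 8 genes (0.0790%), all higher with dDAVP, and again 0 of the 7 members, of which 1 had an unadjusted p under 0.05 beside 6.03% of all genes. The members' median log2 fold change was 0.29 without covariates and 0.08 with the set term, beside 0.05 and 0.02 over all genes tested. No member's control and dDAVP values were separated over all 18 libraries, which also held for every one of the 10121 genes (0%).

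Among the ligands, Jag1 gave the smallest unadjusted p of the members with the set term. Over 9 control libraries it ranged from 0.124 to 1223 CPM with a median of 1.89, and over 9 dDAVP libraries from 0 to 1648 CPM with a median of 0.845. The means of 292 ± 525 and 370 ± 643 CPM (SD, n = 9 each) rest on set 4 to 6 alone. The fitted log2 fold change was 0.34 (SE 1.92, edgeR adjusted p = 1.00) without covariates and -1.46 (SE 0.70, unadjusted p = 0.0467, adjusted p = 0.816) with the set term. Without covariates the sign of Jag1 also turned with the scaling and the tool, being negative under 6 of 10 alternatives, and with the set term it was negative under all 13 alternatives other than leave-one-out fits.

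The Jag1 libraries did separate in sets 1 to 3 and 7 to 9, lower with dDAVP in both. In set 1 to 3 every dDAVP library (highest 1.13 CPM) lay below every control library (lowest 1.22 CPM), a separation in that direction seen in 6.93% of 8991 genes. The means were 1.74 ± 0.461 CPM in control and 0.916 ± 0.185 CPM with dDAVP (SD, n = 3 each), with a log2 fold change of -1.0 (SE 0.37, unadjusted p = 0.0203, edgeR adjusted p = 0.393). edgeR called 41 genes in this set (0.456%) and 0 of the 5 members tested, of which Jag1 alone had an unadjusted p under 0.05 beside 10.5% of all genes. Summed over the set, 102 control counts stood against 51 dDAVP counts, a depth-corrected ratio of 1.96 (exact 95% interval 1.39 to 2.80, counting error only).

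In set 7 to 9 every dDAVP library of Jag1 (highest 0.0143 CPM) again lay below every control library (lowest 0.124 CPM), as did 4.43% of 11367 genes in that direction. The means were 0.416 ± 0.410 and 0.00808 ± 0.00732 CPM (SD, n = 3 each), with a log2 fold change of -5.54 (SE 2.02, unadjusted p = 0.0161, edgeR adjusted p = 0.90). The dDAVP libraries held 0, 3 and 2 counts, at or under the floor of 3 counts, against 85, 13 and 17 in control. Over the set the ratio of control to dDAVP was 31.1 (exact 95% interval 12.9 to 97.5, counting error only). edgeR called 0 genes in this set (0%; 590 genes, 5.19%, and 1 member had an unadjusted p under 0.05) and 0 of the 9 members tested, while DESeq2 called 93 genes and 0 members.

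The groups overlapped in set 4 to 6, where Jag1 was abundant. The means were 875 ± 583 CPM in control and 1110 ± 651 CPM with dDAVP (SD, n = 3 each), with a log2 fold change of 0.36 (SE 0.80) that turned to -0.22 with library totals and to -0.06 on log2(FPKM + 1). The test of whether the dDAVP difference varied between sets gave Jag1 an unadjusted p of 0.000322, the 5th smallest of 10121 genes, and an edgeR adjusted p of 0.405. Like the other edgeR fits over all 18 libraries, it used 1 spread per gene for all sets. The spread was unequal: edgeR's common coefficient of variation beyond counting error was 0.292 in set 1 to 3, 0.744 in set 4 to 6 and 0.882 in set 7 to 9. edgeR called 0 genes in this test (0%; 671 genes, 6.63%, and 2 members had an unadjusted p under 0.05), while DESeq2 called 91 (0.899%), Jag1 among them (adjusted p = 0.00309). Jag2 had an unadjusted p of 0.0210 in this test (edgeR adjusted p = 0.666). The call for Jag1 therefore depended on the tool, and it was also made by edgeR without the filter on low counts (35 genes called, Jag1 adjusted p = 0.00883).

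Jag2 also separated in 1 set. Its dDAVP libraries of set 4 to 6 (0, 4 and 0 counts) lay below its control libraries (19, 47 and 71 counts), a separation in that direction seen in 4.38% of 10387 genes. The log2 fold change was -4.96 (SE 1.69, unadjusted p = 0.0123, edgeR adjusted p = 0.999), and -8.17 without dDAVP library 5, the one with counts. Over the set the ratio of control to dDAVP was 34.6 (exact 95% interval 13.2 to 129, counting error only). edgeR called 0 genes in this set (0%; 479 genes, 4.61%, and 1 member had an unadjusted p under 0.05) and 0 of the 7 members tested, while DESeq2 called 29 genes and 0 members. The groups overlapped in set 7 to 9, where Jag2 was highest, and the log2 fold change was 1.05 (SE 1.26). Of the unadjusted edgeR p-values of Jag1 and Jag2 under 0.05 given above, in the dDAVP fits and in the test of whether the difference varied between sets, none passed the adjustment over all genes.

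Dll1 stood at 0.809 ± 0.731 CPM in control and 0.979 ± 1.28 CPM with dDAVP (SD, n = 9 each), with a log2 fold change of 0.08 (SE 0.69) in the fit with the set term. Dll4 stood at 0.0984 ± 0.189 and 0.114 ± 0.173 CPM and was tested only in set 7 to 9, with a log2 fold change of 0.48 (SE 1.73). Neither Delta ligand had separated groups in any set. On the CPM scale no member was separated in the other direction, with every dDAVP library above every control library, in any set. Such a separation was seen in 7.47%, 5.38% and 4.56% of the genes tested in sets 1 to 3, 4 to 6 and 7 to 9. In FPKM, Notch1 and Notch3 were separated in this direction in set 7 to 9, as given below.

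On the CPM scale the receptors differed little between control and dDAVP in relation to their spread. Notch1 stood at 39.2 ± 13.9 CPM in control and 44.0 ± 28.5 CPM with dDAVP (SD, n = 9 each), and with the set term its log2 fold change was 0.09 (SE 0.31). In CPM it was lower with dDAVP at 7 of the 9 numbers and at 3 of 3 in set 1 to 3. Its highest value, 112 CPM, was that of dDAVP library 7. In FPKM it was lower with dDAVP at numbers 2, 3 and 6 and higher at the others. Notch2 stood at 540 ± 997 and 953 ± 1674 CPM, with a log2 fold change of 0.38 (SE 0.46). Notch3 stood at 11.04 ± 10.2 and 11.8 ± 9.90 CPM, with a log2 fold change of 0.22 (SE 0.38). None of the 3 passed in any set, and in CPM the groups of none were separated in any set. In FPKM the groups of set 7 to 9 were separated for Notch1 and Notch3, higher with dDAVP. Notch1 had 5.45 to 6.89 in control and 10.5 to 15.4 with dDAVP, and Notch3 0.687 to 2.34 and 2.62 to 4.68. On log2(FPKM + 1) limma called 0 of the 9 members there, and the share of all genes separated in FPKM was not counted. In that fit the median log2 fold change was 0.35 over all genes and 0.33 over the members. With TMM scaling the median over all genes of this set was -0.03. The narrowest error was that of Notch1 in set 1 to 3, where the log2 fold change was -0.33 (SE 0.24, edgeR adjusted p = 0.625). Notch2 in set 4 to 6 was higher in CPM with dDAVP at each of the 3 numbers, with a log2 fold change of 0.85 (SE 0.88) inside its error. In FPKM it was lower with dDAVP at number 6, with 239 in control and 136 with dDAVP.

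Hes1, the one target tested over all 18 libraries, stood at 21.2 ± 20.9 CPM in control and 14.7 ± 12.05 CPM with dDAVP (SD, n = 9 each), with a log2 fold change of -0.35 (SE 0.47) in the fit with the set term, and of -0.00104 without control library 9. In set 1 to 3 the dDAVP libraries held 6.67, 15.8 and 13.001 CPM, on both sides of the control libraries near 10.4 CPM, and the log2 fold change was 0.10 (SE 0.30). In set 4 to 6 the control libraries held 18.1, 12.6 and 21.8 CPM and the dDAVP libraries 16.1, 29.4 and 3.23 CPM. In set 7 to 9 the control libraries held 12.9, 18.7 and 75.6 CPM and the dDAVP libraries 38.1, 5.12 and 4.64 CPM, with a log2 fold change of -1.23 (SE 0.97). The Hes1 groups overlapped in all 3 sets.

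Hey1 and Heyl were too low for most comparisons. Hey1 was listed with 0 to 2 counts in each of the 9 dDAVP libraries and in 7 of the 9 control libraries, and it passed the filter in none of the 5 dDAVP fits with all their libraries. It was tested in 4 fits of set 7 to 9 that left out 1 library, and was called in none of them. Its group means of 1.28 ± 3.71 and 0.00214 ± 0.00489 CPM (SD, n = 9 each) differ through control library 9. Heyl was tested in set 7 to 9, with a log2 fold change of -1.34 (SE 1.65) that was -0.18 without control library 7 and -3.62 without dDAVP library 7.

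**Figure D4:**
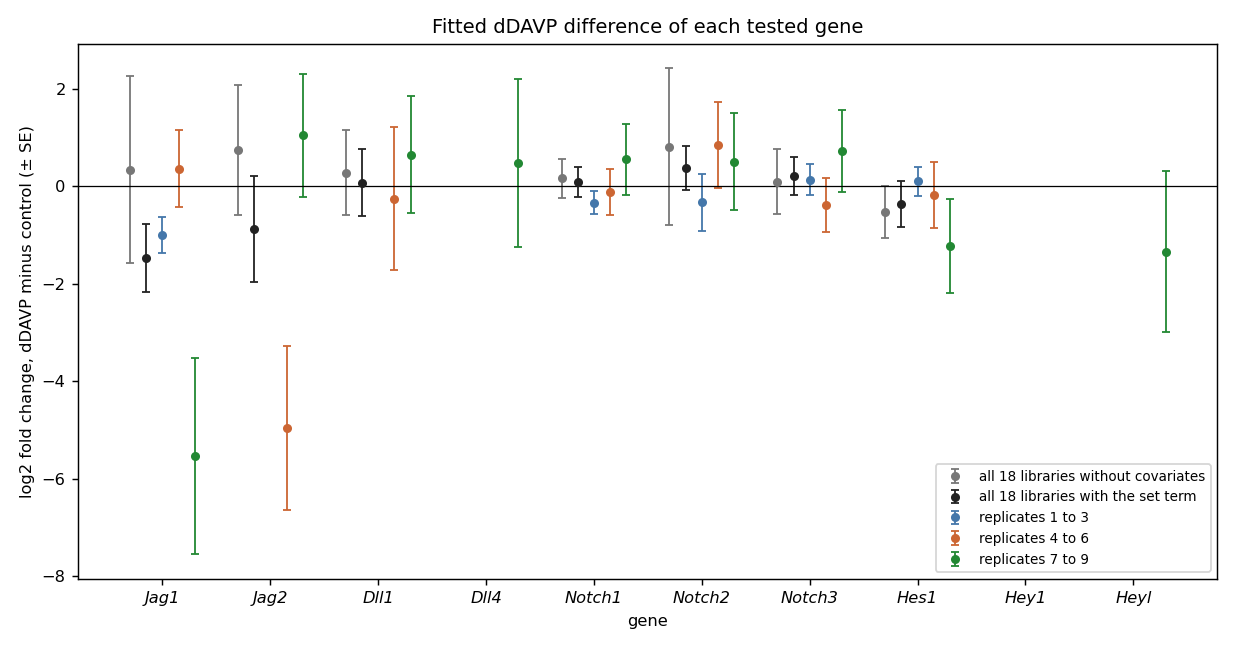
Fitted log2 fold change of dDAVP against control (vertical axis, bars ± SE) for each gene (horizontal axis) in the 5 fits; a gene without points did not pass the filter. Jag1 lies at -1.0 in set 1 to 3, 0.36 in set 4 to 6 and -5.54 in set 7 to 9, and none of the points passed the adjusted test.

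The rest of the pathway was followed in a list of 48 genes, all present in the table: other ligands, receptors and targets, enzymes that glycosylate the receptors, ligand endocytosis factors, the ADAM proteases, gamma-secretase, the nuclear complex, corepressors and factors of receptor turnover. Of these 48, 35 were tested over all 18 libraries, 28 in set 1 to 3, 36 in set 4 to 6 and 38 in set 7 to 9, and edgeR called 0 in each fit (1 of the 48 had an unadjusted p under 0.05 without covariates, 2 with the set term, and 2, 5 and 2 in the 3 sets; DESeq2 also called 0). With the set term 22 of the 35 had a positive log2 fold change, with a median of 0.05 beside 0.02 over all genes. All 7 subunits or partners of gamma-secretase were tested, with a median of 0.01, and the 7 corepressors, which silence targets in the absence of signal, had a median of 0.34.

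The 3 pathway genes with the smallest p-values with the set term were all higher on average with dDAVP and none passed. Neurl1b, a ubiquitin ligase that acts on Notch ligands, stood at 10.3 ± 4.77 CPM in control and 21.7 ± 18.4 CPM with dDAVP (SD, n = 9 each) and was higher with dDAVP at 9 of the 9 numbers. Its log2 fold change was 0.95 (SE 0.35, unadjusted p = 0.0121, edgeR adjusted p = 0.815), and limma voom with quality weights gave an adjusted p of 0.0423. Adam17, a metalloprotease that can cut Notch receptors, stood at 44.4 ± 32.3 and 111 ± 157 CPM, higher at 7 of the 9 numbers (log2 fold change 0.96, SE 0.35, edgeR adjusted p = 0.815). Neurl1b and Adam17 were chosen by p in these same libraries, so their counts of numbers add no separate evidence. The share of all genes with such counts was not determined. Psen2, a catalytic subunit of gamma-secretase, had a log2 fold change of 0.61 (SE 0.38, edgeR adjusted p = 0.856). In the test of the set effect 28 of the 35 genes were called, beside the 78.0% of all genes.

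**Figure D5:**
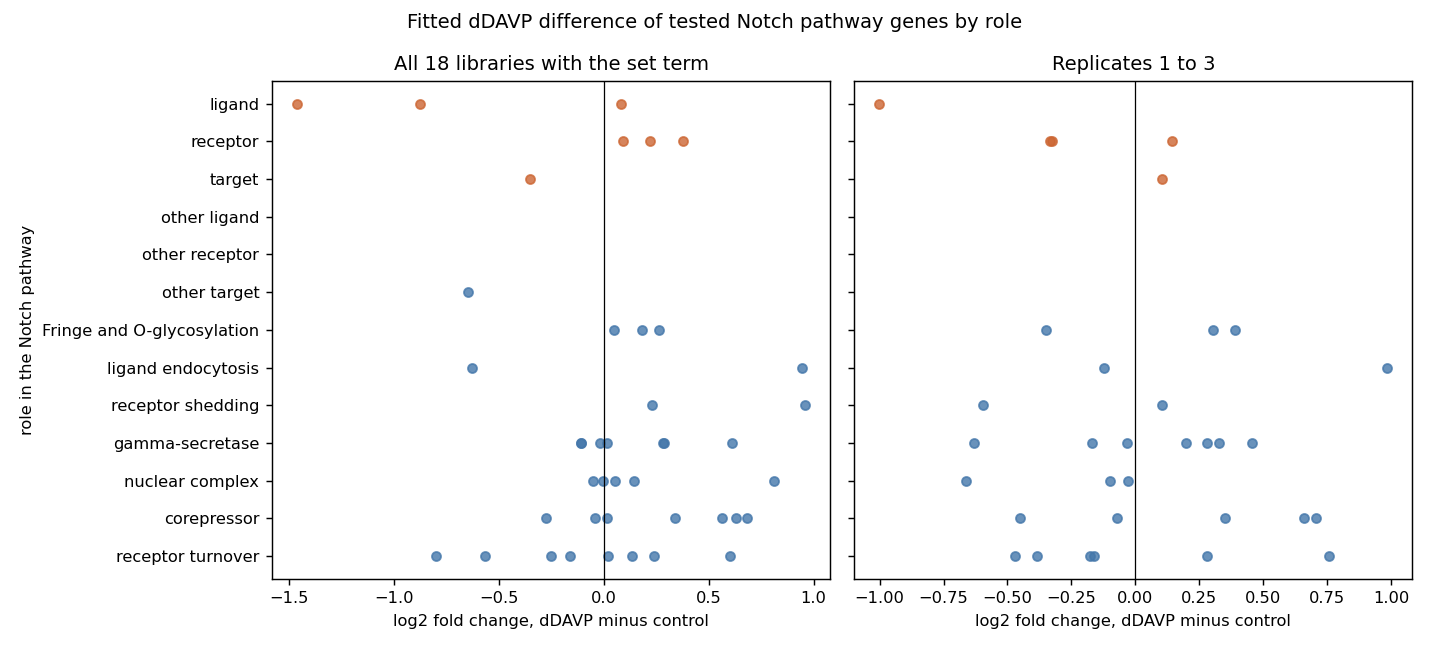
Fitted log2 fold change of dDAVP against control (horizontal axis) for each tested gene, by role in the pathway (vertical axis), with the set term and in set 1 to 3; orange points are the members and blue points the other pathway genes. Each point is 1 gene, most lie within 1 log2 unit of 0, and no point passed the adjusted test.

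The genes whose profile over the 18 libraries lay closest to that of Jag1 were Myef2, Zfp948 and Itgb6. Closeness was the root mean square difference of log2(CPM + 1) after subtracting each gene's mean, over 9708 other genes: 0.53, 0.56 and 0.59, where the spread of Jag1 itself on that scale was 4.28. Notch2 came 15th, at 0.77. For Hes1 the closest were Jtb (0.42), Cenpw (0.43) and Arhgef2 (0.49), with a spread of Hes1 itself of 0.99. The profile of Jag1 was matched far more closely in relation to its own spread than that of Hes1.

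The label of collecting duct cells was checked against markers. Summed principal cell markers ran from 112 to 3067 CPM and summed intercalated cell markers from 10.0 to 90.8 CPM over the 18 libraries. The intercalated sums of set 1 to 3, where Jag1 was separated lower, did not overlap. They were 14.4 to 20.7 CPM in control and 23.9 to 39.6 CPM with dDAVP. Of the 8991 single genes tested in that set, 7.47% were separated higher with dDAVP. Of the 11 intercalated markers 5 were under 1 CPM in all 18 libraries. In set 1 to 3, 5 of the 11 were at 0 in all control libraries and 4 in all dDAVP libraries. The 4 tested there all had a positive log2 fold change (median 1.81). It was 0.24 (SE 0.38) for Car2, the marker of this list with the highest mean over the 18 libraries. edgeR called 0 of them, with the smallest adjusted p at 0.107 for Atp6v0a4, a proton pump subunit. An unadjusted edgeR p under 0.05 was reached by 3 of the 4, beside 10.5% of all genes. The intercalated sums overlapped in set 4 to 6 (42.3 to 57.7 and 37.7 to 73.7 CPM) and in set 7 to 9 (10.0 to 69.1 and 23.3 to 90.8 CPM). The principal sums, which include Aqp2, were 164 to 237 CPM in control and 1289 to 3067 CPM with dDAVP in set 1 to 3. They overlapped in set 4 to 6 (209 to 364 and 231 to 1313 CPM) and in set 7 to 9 (112 to 357 and 288 to 2954 CPM). Of the 10 principal markers 6 were tested in set 1 to 3, 4 of them with a positive log2 fold change, and edgeR called Aqp2 alone. The part of these lists in the levels of Jag1 was not tested. Endothelial markers, of a cell type rich in Dll4, summed to 0 to 0.302 CPM, and Pecam1, Cdh5 and Kdr were at 0 in all 18. The 7 mural and fibroblast markers, of cells in which Notch3 and Heyl are well known, summed to at most 0.120 CPM in sets 1 to 3 and 4 to 6, and to 0.187 to 1.86 CPM in control and 0.135 to 1.01 CPM in dDAVP libraries of set 7 to 9. Of the 7, Pdgfra was at 0 in all 18. Leukocyte markers (4 genes) summed to 0 to 31.8 CPM, with Csf1r at up to 23.6 CPM, Itgam at 0 in all 18 and Ptprc at 0.00724 CPM at most, and in set 7 to 9 to 9.80 to 31.8 CPM in control and 18.3 to 27.5 CPM with dDAVP. The part of these 2 lists in the levels of Jag2, Dll4 and Heyl in set 7 to 9 was not tested. In such bulk RNA, fewer cells of a kind and less RNA per cell cannot be told apart.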

How the data were processed

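Per the labels' protocols, libraries were made from 20 ng of total RNA and read as 50-base single ends; 2 preparation protocols are described, and which library used which, and the strand setting, are not given in the sources used here, so reads of a gene and of an antisense partner cannot be told apart. The aligner STAR (version 2.4.0.1), HTSeq, SAMtools and the build mm10 are named in the submitters' processing notes; the deposited read counts per gene are whole numbers without normalisation, and the deposited FPKM values divide the counts by gene length and library total (their ratio to the counts varied by 0.0193% in the median gene). From the counts, TMM scaling, filterByExpr by treatment and quasi-likelihood tests (edgeR 4.0.16, R 4.3.3) were run over whole tables, with adjusted p-values over all genes tested, with DESeq2 1.42.0 and limma 3.58.1 as alternatives. Log values used a pseudocount of 1. The scripts were tested on simulated data. Depth limits counts to a floor of 3. No 2 libraries of the same treatment group were alike within counting noise, and control libraries were not compared with dDAVP libraries in this check. The members and lists were chosen with earlier results of these data known. Named genes were all members, the 3 pathway genes with the smallest p with the set term and the 3 genes most like Jag1 and Hes1. Same-numbered samples deviated together from the group means (r 0.399 to 0.926 over genes), through the sets: from the set means r ran from -0.706 to 0.430. The labels do not say what a number shares.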

Additional observations from a re-analysis of the deposited data

Results flagged for a closer look

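Jag2 in dDAVP library 7 stood at 33.8 CPM, far from the 8 other dDAVP libraries. Hes1 in control library 9 stood at 75.6 CPM, far from the 8 other control libraries, and Hey1 was also highest there. These were the 2 found when 12 groups of 9 libraries were looked at on log2(CPM + 1) with Dixon's criterion at 95%. It marks about 1 in 20 groups by chance where all 9 values come from 1 normal distribution. Each group here spans the 3 sets, between which 78.0% of genes were called different, so that rate need not hold. The 12 groups did not cover every member in both treatments. Hey1 in control library 9 (11.2 CPM, next 0.209) and Heyl in dDAVP library 4 (3.38 CPM, next 0.949) also stood far off and are not among the 2. The fitted log2 fold change of Jag1 with dDAVP was 0.36 in set 4 to 6, with all 3 numbers higher, and -1.0 in set 1 to 3 and -5.54 in set 7 to 9, with all 3 numbers lower in each. The test of whether this difference varied between sets had an adjusted p of 0.405 with edgeR and 0.00309 with DESeq2, and 0.0690 to 0.808 with edgeR when 1 library was left out. The sign in set 4 to 6 turned with the scaling, as given above.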

How the results depend on the processing

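Of 35 fitted dDAVP differences of members, 23 kept their sign under every alternative except the leave-one-out fits, and of 262 such values 31 changed sign; no member passed the threshold in a dDAVP fit except where named here. Without the filter on low counts Hey1 was the 1 member called in set 7 to 9, and 1 member, Jag1, was called in the test of whether the dDAVP difference varied between sets, without the filter and with DESeq2. Without covariates the log2 fold change of Jag1 changed to -0.23 with library totals, -1.24 with the replicate block (the number fitted as a pair), -3.45 with limma voom, -2.63 with its quality weights, and -0.13 and -0.55 on FPKM with pseudocounts of 1 and 0.1. Jag2 changed to -1.10 with DESeq2, -2.0 with the replicate block, -0.92 and -0.54 with voom and its weights and -0.33 on FPKM with 0.1. Dll1 changed to -0.17 with the block, -0.23 with voom and -1.14 with weights, Notch1 to -5.6e-05 and -0.17 with the block and weights, and Notch2 to -0.41 with weights. With the set term Jag2 changed to 0.095 on FPKM and, chosen after seeing the data, to 0.77 without set 4 to 6. Dll1 changed to -0.17 with the block, -0.16 with voom and -0.61 with weights, Notch1 to -5.6e-05 with the block and -0.080 with weights, and Hes1 to 0.0086 with weights. Without set 7 to 9 Notch1 changed to -0.17, Notch3 to -0.074 and Hes1 to 0.0089. Within sets Jag1 in set 4 to 6 changed to -0.22 with library totals and -0.058 on FPKM, and Jag2 in set 7 to 9 to -0.28 with the block. The replicate block changed no member's call. The cause was not tested.

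With 1 library left out at a time, 0 members passed in any dDAVP fit and 5 passed in the test of the set effect. Without covariates the values ran from -0.47 to 1.07 for Jag1, -1.94 to 1.57 for Jag2, -0.44 to 0.65 for Dll1, -0.19 to 0.28 for Notch1, -0.14 to 1.83 for Notch2 and -0.21 to 0.40 for Notch3. With the set term they ran from -0.42 to 0.39 for Dll1, -0.20 to 0.19 for Notch1 -0.083 to 0.36 for Notch3 and -0.71 to -0.00104 for Hes1. In set 1 to 3 they ran from -0.97 to 0.67 for Notch2, -0.038 to 0.32 for Notch3 and -0.13 to 0.36 for Hes1. In set 4 to 6 they ran from -0.11 to 0.78 for Jag1, -1.05 to 0.58 for Dll1, -0.39 to 0.14 for Notch1 and -0.91 to 0.29 for Hes1, and from -8.17 to -4.43 for Jag2. Those of set 7 to 9 ran from -1.34 to 1.94 for Jag2, -0.51 to 1.15 for Dll1, -0.087 to 2.57 for Dll4, -0.15 to 0.89 for Notch1, -0.36 to 1.30 for Notch2, -2.92 to 0.012 for Hes1 and -3.62 to -0.18 for Heyl. Of the pathway list, Neurl1b and Kat2b were called in set 1 to 3 without dDAVP library 1, and Numbl in set 7 to 9 without dDAVP library 7.

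Over all genes, the calls with the set term went from 8 to 31 with DESeq2, 118 with quality weights, 1 with the block, 5 with library totals and 0 without set 1 to 3. In set 1 to 3 they went from 41 to 123 with DESeq2, 101 with the block and 207 without the filter, and ran from 13 (without control library 2) to 774 (without dDAVP library 1) with 1 library left out. Set 7 to 9 went from 0 to 30 without the filter, 93 with DESeq2 and 98 (2 higher, 96 lower) without dDAVP library 7, which also took the test of whether the difference varied between sets from 0 to 45, with 0 members in both. Leaving out control library 7 gave 6 calls in set 7 to 9, and the other libraries 0 or 1. Depth limits Dll4, Hey1, Heyl and, in sets 1 to 3 and 7 to 9, Jag1, whose libraries there held 0 to 85 counts.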
